A study of Coryphaena hippurus with 32 samples.

Results

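The genes described here are cytochromes P450 (CYP) and the enzymes that conjugate small molecules with glutathione (GST and MGST), glucuronic acid (UGT) or sulfate (SULT), in oil-exposed mahi-mahi. Members were all genes whose symbol in the authors' deposited comparison tables follows the naming pattern of these families. CYP1A1, CYP1B1, CYP7A1 and CYP51A1 are not among them. The pattern picked 43 genes: 27 P450s, 6 GSTs, 1 MGST, 5 UGTs and 4 SULTs. Of these, 41 are among the 12653 human gene identifiers in the count table. The pattern itself uses names and no measured value.

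Cytochromes P450 are heme enzymes that insert oxygen into their substrates. Some of them act on foreign compounds such as oil hydrocarbons. Others make or break down vitamin D, retinoic acid, steroids, bile acids and fatty acids. Conjugating enzymes then join the oxidised product, or a hormone or bilirubin, to a water-soluble group, so that it can be carried out of the cell. In vertebrates many of these enzymes are most abundant in liver, intestine and kidney.

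Messenger RNA was sequenced from whole mahi-mahi (Coryphaena hippurus), a fast-growing ocean fish, with 30 pooled embryos or larvae in each replicate. The eggs came from spawns of wild-caught broodstock, and embryos were exposed soon after fertilization in static seawater that was not renewed. The groups were slick oil at 1 g/l, source oil at 1 g/l, and control seawater at 0 g/l, each sampled at 24, 48 and 96 h post fertilization (hpf). Both oils come from the Deepwater Horizon spill, and both were added as a high-energy water accommodated fraction (HEWAF), a mixture of oil and seawater made by vigorous blending. The 32 samples gave 27 libraries, 3 in each of the 9 groups, because 5 pairs of control samples had counts whose difference was not beyond sampling noise at a threshold of 0.001 (chi-square p from 0.021 to 0.98) and were summed and counted as 1 sample each. Replicates were kept in separate beakers, and the labels do not say whether their eggs came from different spawns. The p-values therefore cover the spread between beakers, which may be technical.

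Counts are keyed to human genes, so a symbol names the best-matching human gene and not a proven mahi-mahi counterpart. Fish carry many P450, GST, UGT and SULT copies that have no exact human partner, and reads of such copies could be split over several lines or pooled into 1. A deposited sample held 1823727 to 2560303 counts over 1 line per gene, and a summed pair held up to 4470040. Levels are given in counts-per-million units (cpm) after scaling over the 27 libraries, where 1 cpm stood for 1.8 to 4.47 counts. They are not divided by transcript length, so levels of different genes should not be compared.

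Of the 43 members, 34 had counts, 7 had a line but 0 counts in every sample, and 2 had no line. The 7 with 0 counts were CYP11B2, CYP27A1, GSTA1, GSTM3, MGST3, UGT1A1 and UGT1A10, and the 2 without a line were CYP4F3 and UGT2A1. CYP3A4 and CYP3A7, the main CYP3A enzymes of the adult and the fetal human liver, had identical counts and form 1 feature, written CYP3A4/CYP3A7. The 34 counted members therefore make 33 features. The features of CYP2A13, CYP3A4/CYP3A7, CYP3A43, CYP4B1, CYP19A1, GSTT2 and UGT1A8 also include identifiers outside the members, with identical counts. Names and functions given for these features are those of the member, and their reads may stem from another gene. A filter on low counts passed 14 of the 33 features at 24 hpf, 14 at 48 hpf, 17 at 96 hpf and 20 over all stages together. The other 13 held between 1 and 113 counts over the whole series, against 186 to 2039 counts for the 20 that passed. Those 13 include all 4 counted P450s of steroid hormone synthesis, such as CYP17A1 with 5 counts, and CYP27B1, which makes active vitamin D, with 17 counts. The filter left these 13 out of the main fits. Under an alternative, 3 of the 13 passed the test. UGT3A2 was lower in controls at 48 than at 24 hpf (log2 change -1.79, adjusted p = 0.0065) and CYP7B1 higher at 96 than at 48 hpf (1.61, adjusted p = 0.018), both with no filter. CYP2W1 was higher in slick than in control at 96 hpf with all lines of a gene summed (1.74, adjusted p = 0.013). That sum added identical lines each time they occurred. CYP2W1 has 18 lines, of which 2 are distinct, so its 20 counts were added more than once and this pass is not read as a result.

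**Figure D1:**
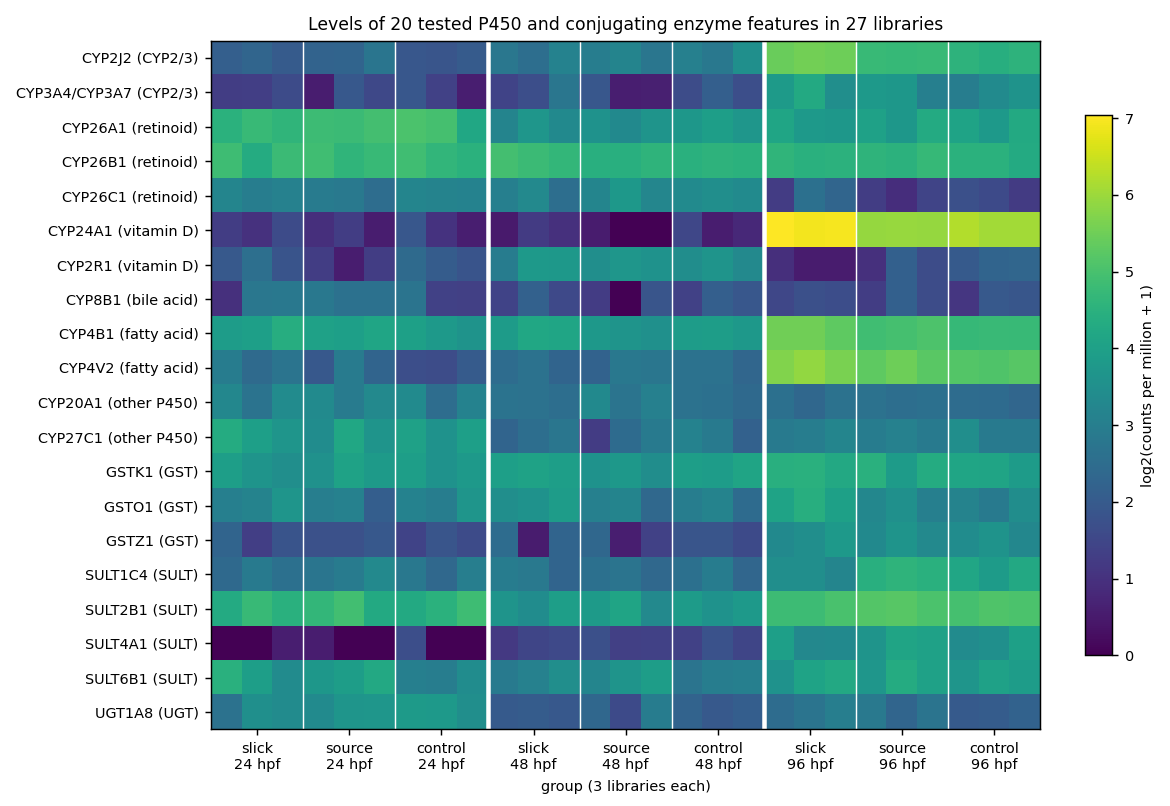
Level of each of the 20 tested features (rows) in each of the 27 libraries (columns, 3 per group), as log2(cpm + 1) on the colour scale. The brightest row is CYP24A1 at 96 hpf, at 121 to 131 cpm in slick, and its 24 and 48 hpf columns are dark in every group.

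At 96 hpf, slick-exposed larvae differed from controls in 7 of the 17 tested members, 6 higher and 1 lower. CYP24A1, CYP2J2, CYP3A4/CYP3A7, CYP4B1, CYP4V2 and GSTO1 rose between 1.56-fold and 2.28-fold, and SULT1C4 fell to 0.614 of its control level. In edgeR's quasi-likelihood F-test, with Benjamini-Hochberg adjustment over all 8511 tested features and a call at an adjusted p below 0.05, 21.2% of features were called in this comparison, 10.9% higher and 10.4% lower. Among members the shares were 41.2% called and 35.3% higher. P450s accounted for 5 of the 6 that rose, out of 9 tested P450s. The 8 tested conjugating enzymes gave 1 higher and 1 lower. The median log2 change was 0.18 over the members and 0.01 over all tested features.

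Source-exposed larvae at 96 hpf had 0 of 17 members called against control, with 3 at an unadjusted p below 0.05 and 1.1% of all tested features called. Their median log2 change over the members was 0.20. The same control libraries serve both oil comparisons. Slick against source does not use the control means, although the control libraries entered its filter, scaling and estimate of the spread. It gave 6 called members of 17, with CYP24A1, CYP2J2, CYP4B1, CYP4V2 and GSTO1 higher in slick and SULT1C4 lower. In that comparison 13.5% of all tested features were called, 6.99% higher and 6.47% lower. Whole animals were sequenced, so a change in the number of cells that make an enzyme and a change in the RNA per cell cannot be told apart.

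**Figure D2:**
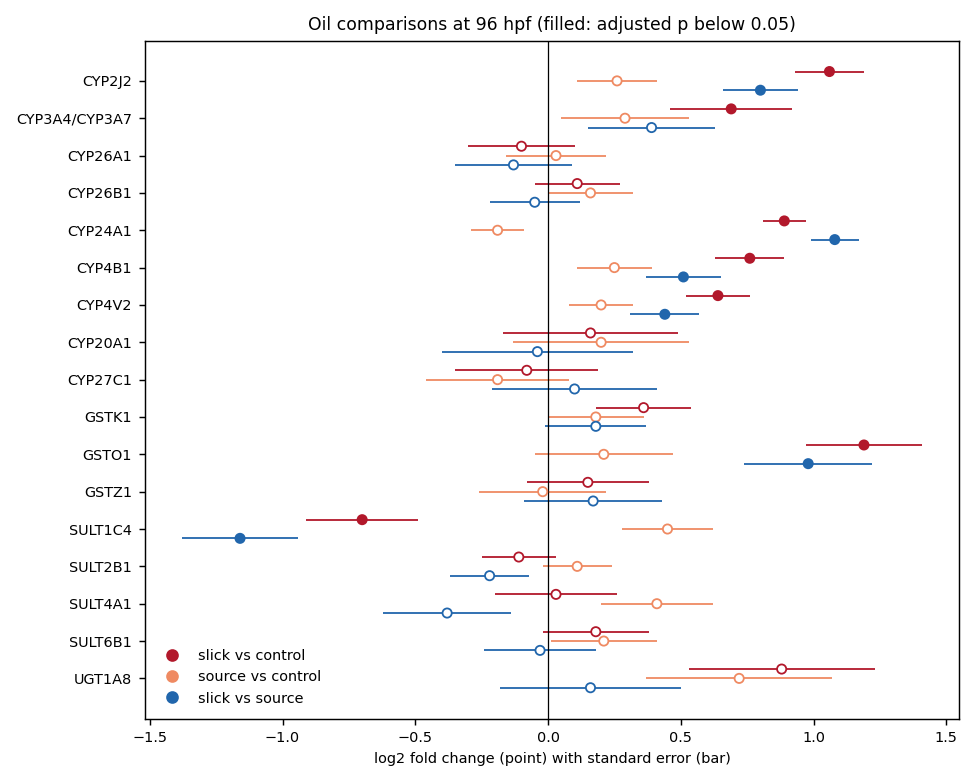
Log2 fold change (point) with its standard error (bar) of the 17 members tested at 96 hpf, for slick against control, source against control and slick against source. Filled points passed the test. The source against control points are all open. For slick against control 6 filled points lie right of zero and 1, SULT1C4, lies left of it.

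The vitamin D enzymes CYP24A1 and CYP2R1 lay on opposite sides of control in slick larvae at 96 hpf. CYP24A1, which inactivates vitamin D hormone and is a classic target of the vitamin D receptor in mammals, stood at 131, 121 and 123 cpm in slick larvae at 96 hpf, against 74.9, 65.8 and 65.8 cpm in controls. Source larvae had 59.6, 61.5 and 59.8 cpm. Every slick library lay above every other library of that stage, and the source libraries lay below all controls. The log2 change was 0.89 ± 0.08 (SE; 1.85-fold, adjusted p = 1e-17) for slick against control and 1.08 ± 0.09 (adjusted p = 1.1e-19) for slick against source. For source against control it was -0.19 ± 0.10 (adjusted p = 0.54). The identifier has 5 distinct lines in the table, and on each of them the slick mean was 1.81 to 1.94 times the control mean.

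CYP2R1, which carries out the first activating step on vitamin D, was lower. Its slick libraries held 0.921, 0.458 and 0.438 cpm at 96 hpf, its source libraries 0.962, 3.51 and 2.13 cpm, and its control libraries 3.0, 3.80 and 4.05 cpm. All 3 slick libraries were below all 3 controls. These are few reads, 4 in slick against 39 in control over the groups, a ratio of 0.17 with a 95% interval of 0.0442 to 0.472 (exact, counting error only). The low-count filter removed CYP2R1 from the fit of 96 hpf libraries, so it is not among the 7 called members. In the fit of all stages together it was lower in slick (log2 change -2.46 ± 0.59, adjusted p = 0.00076), and with no filter at 96 hpf the change was -2.44 (adjusted p = 0.0014). Its second line, with fewer counts, gave a slick to control ratio of 0.381, against 0.167 on the line used. The source to control ratio was 1.21 on the second line, against 0.609 on the line used. In the same all-stage fit the change was -0.65 for source against control (adjusted p = 0.70) and -1.81 for slick against source (adjusted p = 0.08).

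The slick effect on CYP2R1 differed between stages. At 48 hpf it stood at 6.74 to 12.9 cpm in slick, 10.1 to 12.1 cpm in source and 9.05 to 11.6 cpm in control, and the groups overlapped. The slick effect at 96 hpf minus that at 48 hpf was -2.51 ± 0.64 on the log2 scale (interaction, adjusted p = 0.0035). CYP2R1 passed the low-count filter within a stage only at 48 hpf, and so entered the fit of this interaction through that stage. CYP2J2 was the other of 2 members of 20 called in this interaction, with +1.39 ± 0.29 (adjusted p = 0.0002), where 11.6% of all 8898 tested features were called (5.03% higher and 6.61% lower). The interaction of slick between 48 and 24 hpf called 0 of 20 members (0.674% of all features). Both source interactions also called 0 of 20, at 0.146% of features for 48 against 24 hpf and 0.652% for 96 against 48 hpf. VDR, the vitamin D receptor, averaged 27.1 ± 4.47 cpm in slick larvae and 34.3 ± 4.74 cpm in control larvae (SD, n = 3 each), a log2 change of -0.34 that missed the threshold (adjusted p = 0.076).

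Both tested P450s of the families that oxidise foreign compounds rose in slick larvae at 96 hpf. CYP2J2 makes epoxides of arachidonic acid and in humans is the most abundant P450 of the heart. Slick larvae held 41.9, 45.8 and 43.8 cpm at 96 hpf, source larvae 26, 25.5 and 25.6 cpm, and controls 22.4, 20.4 and 22.5 cpm. The slick libraries stood well above the rest, and the source libraries lay narrowly above all controls. On the log2 scale the change was 1.06 ± 0.13 for slick against control (2.08-fold, adjusted p = 3.7e-11) and 0.80 ± 0.14 for slick against source (adjusted p = 4.5e-06). For source against control it was 0.26 ± 0.15 (adjusted p = 0.63). Its 2 well-covered lines gave the same slick to control ratio of 2.02.

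CYP3A4/CYP3A7, named for enzymes that oxidise many drugs and steroids, had 13.3, 18.3 and 10.1 cpm in slick larvae and 13, 12.3 and 7.26 cpm in source larvae. Controls had 6.92, 9.40 and 11.3 cpm, so that the groups overlapped. The change for slick against control was 0.69 ± 0.23 (1.61-fold, adjusted p = 0.02). This call rests on single libraries, since the adjusted p became 0.30 without slick replicate 8 and 0.17 without the summed control 10+11. It was also lost with DESeq2 (adjusted p = 0.17) and with all lines of a gene summed (adjusted p = 0.10). That sum added identical lines each time they occurred, so its p-value is not relied on. Slick against source gave 0.39 (adjusted p = 0.33). CYP2W1, a P450 of the developing gut in mammals, and CYP2A13 were left out by the filter, with 20 and 48 counts on the lines used. With no filter their changes in slick were 1.64 (adjusted p = 0.23) and 1.27 (adjusted p = 0.15). CYP2W1 passed only where its identical lines were added repeatedly, as given above.

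Both tested P450s of fatty acid hydroxylation rose in slick larvae at 96 hpf. CYP4B1, which shares its counts with another identifier, is named for an enzyme that hydroxylates short fatty acids and activates some foreign compounds. It stood at 44.7, 44.9 and 38.5 cpm in slick, 28.4, 30.3 and 32.9 cpm in source, and 25.4, 26.4 and 25.7 cpm in control. The 3 groups did not overlap, in the order slick, source, control, but only the differences from slick passed the test. On the log2 scale the change was 0.76 ± 0.13 for slick against control (1.69-fold, adjusted p = 8.2e-07), 0.51 ± 0.14 for slick against source (adjusted p = 0.0047) and 0.25 ± 0.14 for source against control (adjusted p = 0.60). With DESeq2 the difference between slick and source had an adjusted p of 0.0531.

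CYP4V2, an omega-hydroxylase of fatty acids whose loss in humans causes a crystalline retinal dystrophy, showed the same order. Slick libraries held 51.1, 59.1 and 48.1 cpm, source libraries 38.5, 43.9 and 36.7 cpm, and controls 35.0, 33.6 and 36.0 cpm. The change was 0.64 ± 0.12 for slick against control (1.56-fold, adjusted p = 3.5e-06) and 0.44 ± 0.13 for slick against source (adjusted p = 0.0074). The second of these was lost without slick replicate 8 (adjusted p = 0.10), without source replicate 18 (adjusted p = 0.0682) and with DESeq2 (adjusted p = 0.076). Its 3 lines gave slick to control ratios of 1.42 to 1.51. CYP2U1, another fatty acid hydroxylase, did not pass the filter.

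**Figure D3:**
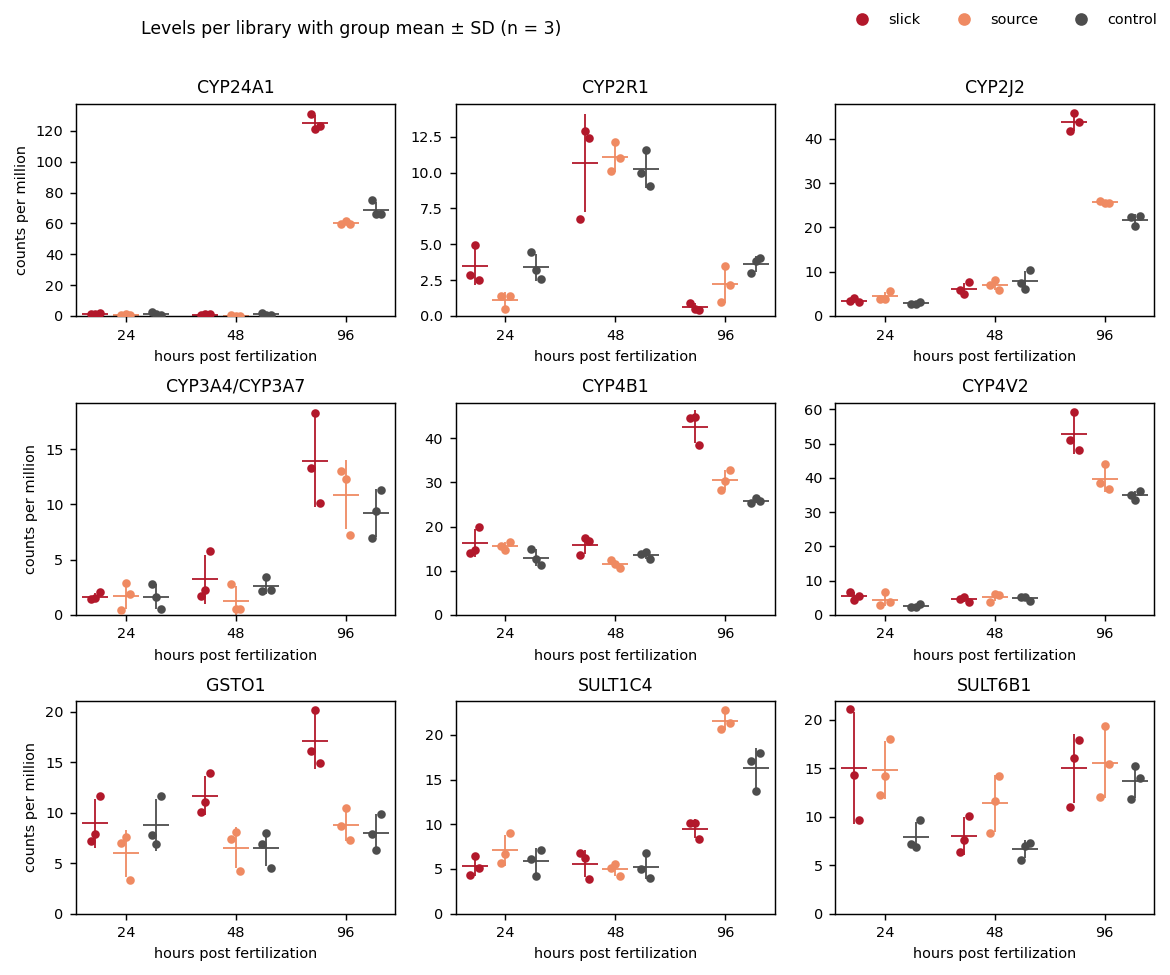
Level in cpm in each library (points) with group mean and SD (bars, n = 3) for 9 members, with slick, source and control side by side at 24, 48 and 96 hpf. Slick points at 96 hpf lie above all others of that stage for CYP24A1, CYP2J2, CYP4B1, CYP4V2 and GSTO1, and below them for SULT1C4 and CYP2R1.

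The P450s that break down retinoic acid, a signal that patterns the embryo, did not pass the test in any oil comparison. CYP26A1 held 16.6, 12.8 and 12.3 cpm in slick at 96 hpf, against 15.9, 13 and 18.5 cpm in control (log2 change -0.10 ± 0.20, adjusted p = 0.77). CYP26B1 held 23.5, 21.1 and 21.9 cpm in slick, against 21.7, 21.7 and 18.9 cpm in control (0.11 ± 0.16, adjusted p = 0.70). For both genes the slick and control libraries overlapped. CYP26C1 was tested at 24 and 48 hpf, where its log2 changes against control lay between -0.45 and 0.02. The filter left it out at 96 hpf, where it averaged 3.45 cpm in slick, 1.34 cpm in source and 1.89 cpm in control. With no filter its change at 96 hpf was 0.82 for slick against control (adjusted p = 0.26). For slick against source it was 1.36 (adjusted p = 0.12), and for source against control -0.55 (adjusted p = 0.89). CYP27C1, which in zebrafish converts vitamin A into its long-wavelength form, and CYP20A1, a P450 without an assigned substrate, also did not pass, at -0.08 and 0.16 for slick at 96 hpf. Of the bile acid and oxysterol enzymes, CYP8B1 passed the filter at 24 hpf, with log2 changes of 0.59 in slick (adjusted p = 0.84) and 0.95 in source (adjusted p = 0.36). At that stage CYP8B1 averaged 4.33 cpm in slick, 5.51 cpm in source and 2.89 cpm in control. It passed mainly through the oil libraries, so these changes are not independent of the filter.

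Glutathione transferases detoxify electrophiles or reduce small molecules with glutathione. GSTO1, the omega-class enzyme that reduces dehydroascorbate and some arsenic compounds, was the member called at 2 stages. At 96 hpf it stood at 16.1, 20.2 and 14.9 cpm in slick, 8.66, 10.5 and 7.26 cpm in source, and 7.84, 6.27 and 9.91 cpm in control. All slick libraries lay above all others, while source and control overlapped. The log2 change was 1.19 ± 0.22 for slick against control (2.28-fold, adjusted p = 5.5e-06), 0.98 ± 0.24 for slick against source (adjusted p = 0.0012) and 0.21 ± 0.26 for source against control (adjusted p = 0.88).

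At 48 hpf the slick libraries of GSTO1 held 10.1, 11.1 and 13.9 cpm, the source libraries 7.35, 8.08 and 4.19 cpm, and the controls 6.88, 7.96 and 4.53 cpm. Slick was again above all others, with a change against control of 0.84 ± 0.25 (1.79-fold) and an adjusted p of 0.0499, just inside the threshold. That call was lost with DESeq2 (adjusted p = 0.36), without the summed control 4+5 (0.098) or 8+9 (0.25), and without slick replicate 5 (0.10) or 6 (0.30). The interaction between 96 and 48 hpf was 0.31 ± 0.34 (adjusted p = 0.64). At 24 hpf GSTO1 averaged 8.92 ± 2.41 cpm in slick and 8.79 ± 2.57 cpm in control (SD, n = 3 each).

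GSTK1, a transferase of mitochondria and peroxisomes, had 20.7, 21.1 and 17.9 cpm in slick larvae at 96 hpf, against 16.8, 16.3 and 13.5 cpm in control (log2 change 0.36 ± 0.18, adjusted p = 0.15). These groups did not overlap, yet the difference missed the threshold. GSTZ1, an enzyme of tyrosine breakdown, gave 0.15 ± 0.23 (adjusted p = 0.71). GSTT2 did not pass the filter, with 91 counts.

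A sulfotransferase was the member called lower among the 17 tested at 96 hpf. SULT1C4, which sulfates phenols, stood at 10.1, 10.1 and 8.31 cpm in slick larvae at 96 hpf, 20.7, 22.8 and 21.3 cpm in source larvae, and 17.1, 13.7 and 18 cpm in controls. The groups did not overlap, with slick lowest and source highest. Fitted log2 changes were -0.70 ± 0.21 for slick against control (adjusted p = 0.0087), 0.45 ± 0.17 for source against control (adjusted p = 0.29) and -1.16 ± 0.22 for slick against source (adjusted p = 1.3e-05). The call against control was lost with DESeq2 (adjusted p = 0.06), without the summed control 10+11 (0.0508) and without slick replicate 9 (0.0623).

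The other sulfotransferases did not pass against control at 96 hpf. SULT2B1, which sulfates cholesterol, changed by -0.11 ± 0.14 in slick (adjusted p = 0.64), and SULT4A1, an orphan sulfotransferase of the mammalian brain, by 0.03 ± 0.23 (adjusted p = 0.96). SULT6B1 gave 0.18 ± 0.20 (adjusted p = 0.58).

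At 24 hpf SULT6B1 came nearest to the threshold in both oils. Its slick libraries held 21.1, 14.3 and 9.64 cpm, its source libraries 12.2, 14.2 and 18 cpm, and its controls 7.20, 6.90 and 9.67 cpm. Source was above all controls, and 1 slick library fell among them. The log2 change was 0.92 ± 0.27 in slick (adjusted p = 0.098) and 0.89 ± 0.27 in source (adjusted p = 0.0542). The adjusted p was 0.015 without slick replicate 3 and 0.0457 without source replicate 10. These were the lowest libraries of their groups, so leaving them out widened the difference from control. At 48 hpf source gave 0.75 ± 0.26 (adjusted p = 0.15).

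Over the first 2 stages few members moved. At 24 hpf 0 of 14 members were called in slick against control (2 at an unadjusted p below 0.05), in source against control (2) and in slick against source (0), where 0.58%, 1.69% and 0.219% of all 7757 features were called. With DESeq2 the counts at 24 hpf were also 0 in each. At 48 hpf slick against control called 1 of 14, GSTO1, which was higher, where 3.3% of 8060 features were called (1.48% higher and 1.82% lower). Source against control called 0 of 14 (3 at an unadjusted p below 0.05) and slick against source 0 of 14 (3), where 1.32% and 0.744% of features were called. DESeq2 called 0 members in all 3 comparisons at 48 hpf.

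Glucuronosyltransferases were thinly covered by the count table, and the UGT1A8 counts are shared with other identifiers. UGT1A8, named for a phenol-conjugating enzyme of the human intestine, held 4.6, 5.50 and 7.00 cpm in slick larvae at 96 hpf, 6.25, 3.95 and 5.55 cpm in source larvae, and 3.0, 3.13 and 3.60 cpm in controls. Both oils lay above all controls. The log2 change was 0.88 ± 0.35 in slick (adjusted p = 0.0552) and 0.72 ± 0.35 in source (adjusted p = 0.51), so neither passed. The controls lay below the cutoff of the low-count filter, and UGT1A8 passed it at 96 hpf through the oil libraries. Its higher values in oil are therefore not independent of the filter. With all lines of the gene summed, the slick change was 0.79 with an adjusted p of 0.016. That sum added 20 lines, of which 6 are distinct, so the same reads were counted more than once and the p-value is not relied on.

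UGT1A1, the enzyme that conjugates bilirubin, and UGT2A1 have values only in the authors' deposited tables. In the authors' deposited table of slick at 96 hpf, UGT1A1 had a log2 change of 2.0 with a standard error of 0.21 and an adjusted p of 2.5e-20, at a mean of 34.5 normalised counts. The authors' deposited tables also gave UGT1A1 a log2 change of 1.39 in slick at 48 hpf (SE 0.13) and 0.22 in slick at 24 hpf (SE 0.08). For source, the authors' deposited tables gave 0.37, 0.22 and 0.45 at 24, 48 and 96 hpf. The unadjusted Wald p-values there were 0.00024, 0.0091 and 3.6e-06, without adjusted ones. Deposited changes were often smaller than those from the counts, to a degree that differed between tables. GSTO1 in slick at 48 hpf had 0.35 against 0.84 from the counts, and CYP24A1 in slick at 96 hpf had 0.84 against 0.89. Sizes of the UGT1A1 changes should therefore not be compared between stages or oils. In the authors' deposited table UGT2A1 had 0.35 in slick at 96 hpf (adjusted p = 0.0313). Because these identifiers have 0 counts or no line in the count table, the libraries behind these values were not seen here.

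Over all members, the authors' deposited table called 7 in slick at 96 hpf, namely UGT1A1, UGT2A1, CYP24A1, CYP2J2, CYP4B1, CYP4V2 and GSTO1. The last 5 of these are also among the 7 called from the counts, which is 5 of 7 in each list. SULT1C4 had an adjusted p of 0.0565 in the authors' deposited table, and CYP3A7 had 0.10. CYP2R1 had a log2 change of -0.85 (SE 0.26) there, with no adjusted p. The other 5 deposited oil comparisons called 0 members, but 4 of them give no member an adjusted p and slick at 48 hpf gives 1 member one. UGT1A1 in slick at 48 hpf, for example, has an unadjusted p of 4.7e-26 in the authors' deposited table and no adjusted p.

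Counted in either direction, members changed with stage in control animals no more often than all tested features did. The member shares were 35% at 48 against 24 hpf and 60% at 96 against 48 hpf. Between 24 and 48 hpf, 7 of 20 members changed in controls, 3 higher and 4 lower, where 47.9% of all 8898 features were called (25% higher and 22.9% lower). Between 48 and 96 hpf, 12 of 20 changed, 10 higher and 2 lower, where 62.3% were called (34.9% higher and 27.4% lower). CYP24A1, CYP3A4/CYP3A7, GSTZ1 and SULT4A1 passed the low-count filter within a stage only at 96 hpf, CYP2R1 only at 48 hpf and CYP8B1 only at 24 hpf. CYP2J2 did not pass it at 24 hpf, UGT1A8 not at 48 hpf and CYP26C1 not at 96 hpf. These members entered the 20 through the stages where they were high, so their rises and falls, and the counts of them, are not independent of the filter. CYP24A1 and SULT2B1 at 96 against 48 hpf met the rule for naming, and the others were named after their values were seen.

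CYP24A1 made the largest move of the 20. In controls it averaged 1.45 ± 1.18 cpm at 24 hpf, 1.03 ± 0.725 cpm at 48 hpf and 68.8 ± 5.28 cpm at 96 hpf (SD, n = 3 each). The log2 change from 48 to 96 hpf was 6.03 ± 0.20 (adjusted p = 6.8e-49). CYP2R1 went the other way over the same interval (-1.52 ± 0.26, adjusted p = 2.3e-07), after rising between 24 and 48 hpf (1.59 ± 0.32, adjusted p = 1.7e-05).

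CYP4V2 (2.82 ± 0.17), CYP3A4/CYP3A7 (1.74 ± 0.31), CYP2J2 (1.45 ± 0.17) and CYP4B1 (0.93 ± 0.14) also rose in controls between 48 and 96 hpf. CYP2J2 had risen between 24 and 48 hpf as well, by 1.46 ± 0.34. CYP4V2 rose in that earlier interval by 0.96 (adjusted p = 0.0343), a call lost with DESeq2 and without control 24 hpf replicate 1 or 2 or the summed 48 hpf control 4+5 or 6+7 (adjusted p from 0.07 to 0.12). GSTO1 did not pass in either interval, with log2 changes of -0.45 and 0.24.

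Among the conjugating enzymes 5 of 8 rose in controls between 48 and 96 hpf and 0 fell. Over all 8898 tested features 62.3% were called in that comparison, 34.9% higher and 27.4% lower. The count is therefore not read as particular to these enzymes. Of the 5 that rose, SULT4A1 and GSTZ1 had passed the filter within a stage only at 96 hpf. SULT4A1 rose by 2.47 ± 0.30 on the log2 scale, GSTZ1 by 2.02 ± 0.29, SULT1C4 by 1.58 ± 0.21, SULT2B1 by 1.35 ± 0.15 and SULT6B1 by 1.03 ± 0.22. SULT2B1 had fallen between 24 and 48 hpf (-0.86 ± 0.18, adjusted p = 3.8e-05), and UGT1A8 fell over that interval to 3.29 cpm on average at 48 hpf, against 12.1 cpm at 24 hpf (-1.86 ± 0.29, adjusted p = 3.3e-08).

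Enzymes of retinoid metabolism were called lower or not called in controls. CYP26A1 (-1.03 ± 0.18) and CYP27C1 (-1.24 ± 0.26) fell in controls between 24 and 48 hpf, and CYP26C1 fell between 48 and 96 hpf (-2.24 ± 0.29). CYP27C1 changed by 0.44 between 48 and 96 hpf (adjusted p = 0.13), and by 0.67 without the summed 48 hpf control 4+5 (adjusted p = 0.0432). CYP26B1 stayed between 18.9 and 28.3 cpm in the 9 control libraries.

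**Figure D4:**
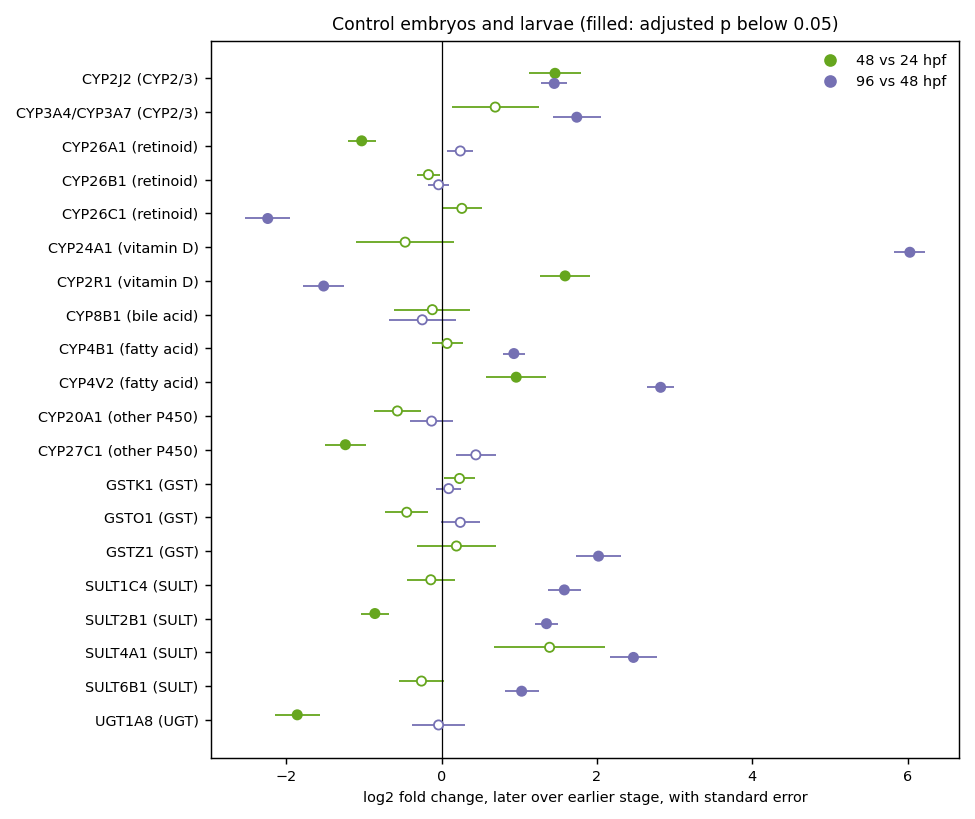
Log2 fold change with standard error of the 20 tested features in control animals, for 48 against 24 hpf and for 96 against 48 hpf. Filled points passed the test. CYP24A1 lies far to the right at 6.03, and CYP26C1 and CYP2R1 are the 2 filled points left of zero for 96 against 48 hpf.

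Other genes of the same pathways were read from lists, for slick against control at 96 hpf. Over all tested features 10.9% were higher and 10.4% lower in slick, and 1.1% were called in source against control. The lists are short, so that a few calls in one of them are not read as particular to it. Of 16 tested regulators, 3 rose and 0 fell. AHRR, the repressor of the aryl hydrocarbon receptor and one of its targets, rose by 2.98 ± 0.11 on the log2 scale, PPARD, a fatty acid receptor, by 0.37 ± 0.12, and HNF4A, a liver and gut transcription factor, by 0.31 ± 0.09. In source larvae 1 of 16 rose, AHRR, by 1.47 ± 0.14. AHR itself gave 0.37 in slick (adjusted p = 0.22).

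Of 24 tested genes for other oxidising and reducing enzymes, 8 rose and 2 fell in slick larvae at 96 hpf. CYP1A1, the main oil-inducible P450 of fish, rose by 5.17 ± 0.08, CYP1B1 by 3.82 ± 0.35, and CYP51A1, an enzyme of cholesterol synthesis, by 1.85 ± 0.10. MAOB, a monoamine oxidase, fell by 0.96, and ALDH2, an aldehyde dehydrogenase, by 0.51. CBR1, a carbonyl reductase, rose by 1.22 ± 0.19. POR, the reductase that supplies microsomal P450s with electrons, averaged 220 ± 16.9 cpm in slick larvae and 223 ± 3.9 cpm in control larvae (SD, n = 3 each; adjusted p = 0.90). In source larvae 2 of 24 rose, CYP1A1 by 3.51 ± 0.08 and CYP1B1 by 2.0 ± 0.48. CYP1B1 averaged 15.5 cpm in slick, 4.44 cpm in source and 1.06 cpm in control. It passed the low-count filter through the oil libraries, so its calls are not independent of the filter.

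Of 14 tested genes that supply or break down the cofactors of conjugation, 0 rose and 3 fell in slick at 96 hpf. CHAC1, which degrades glutathione, fell by 0.90, CTH by 0.67 and CBS by 0.47, the last 2 being enzymes that make cysteine for glutathione. PAPSS1 and PAPSS2, which make the sulfate donor, and UGDH, which makes the glucuronic acid donor, did not pass (log2 changes 0.07, -0.02 and 0.20). CHAC1 also fell in source, by 0.43, the only call among 14.

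Of 12 other conjugating enzymes, 2 rose and 2 fell in slick at 96 hpf. UGT8 and UGCG, which add sugars to lipids, rose by 0.56 and 0.37. DPEP1 and ANPEP, peptidases that process glutathione conjugates at the surface of kidney and gut cells, fell by 1.38 and 1.06. Of 8 transporters, 0 rose and 3 fell, namely SLCO1C1 by 1.17, SLCO3A1 by 0.57 and ABCB11, the bile salt pump, by 0.42. SLCO1C1 averaged 3.76 cpm in slick and 9.05 cpm in control, and passed the low-count filter without the slick libraries. Its fall is therefore not independent of the filter. In source larvae 0 of 12 and 0 of 8 passed.

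Earlier stages gave few calls in these lists. In slick against control at 48 hpf AHRR (3.53), CYP1A1 (4.92), CBR1 (1.01) and GCLC (0.40), which makes the first step of glutathione synthesis, rose. In source at 48 hpf AHRR (1.77) and CYP1A1 (3.37) rose. At 24 hpf AHRR (1.49) and CYP1A1 (4.47) rose in slick, and CYP1A1 (2.95) and CHAC1 (0.64) rose in source. AHRR at 24 hpf averaged 8.55 cpm in slick and 3 cpm in control. It passed the low-count filter there through the oil libraries, so that call is not independent of the filter.

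Markers of the organs that hold these enzymes also differed at 96 hpf. Over all tested features 10.9% were higher and 10.4% lower in slick against control, and 1.1% were called in source against control. Summed intestine markers lay at 199 to 210 cpm in slick, 405 to 472 cpm in source and 402 to 423 cpm in control. Of 5 tested markers, 1 was higher in slick (APOA4) and 4 were lower (ANPEP, MEP1A, MEP1B and SLC15A1). MEP1A averaged 2.87 cpm in slick, 6.72 cpm in source and 5.82 cpm in control. It passed the low-count filter through source and control, so its call is not independent of the filter. ANPEP made up most of the sum, averaging 142 cpm in slick, 328 cpm in source and 303 cpm in control. It is the same gene as in the list of other conjugating enzymes above. FABP2, VIL1, CDX2, SI and CDHR2 of that list had no counted line. Summed liver markers lay at 1503 to 1876 cpm in slick, 1651 to 1718 cpm in source and 1378 to 1517 cpm in control, with 4 of 9 tested markers higher in slick and 1 lower. RBP4, among the higher ones, made up most of the sum, averaging 1029 cpm in slick, 820 cpm in source and 739 cpm in control. TF, the lower one, averaged 62.1 cpm in slick, 188 cpm in source and 145 cpm in control. The order of the sums therefore depends on RBP4. In controls RBP4 and TF already averaged 833 and 684 cpm at 24 hpf, where FGB and FGG averaged 1.07 and 0.369 cpm. TF averaged 1537 cpm in controls at 48 hpf, so the sum is not read as an amount of liver. C3, another marker higher in slick at 96 hpf, averaged 5.74 cpm in slick, 3.06 cpm in source and 1.43 cpm in control. It passed the low-count filter mainly through the oil libraries, so its call is not independent of the filter. In source at 96 hpf 3 of 9 liver markers were higher than in control (FGB, FGG and TF) and 0 lower. None of the tested intestine or kidney tubule markers was called in source against control at that stage. ALB, APOA1, FABP1, TTR and SERPINA1 of the liver list had no counted line. Summed kidney tubule markers lay at 531 to 572 cpm in slick, 554 to 602 cpm in source and 568 to 575 cpm in control, with 1 of 7 lower in slick. At 48 hpf the liver list went the other way. Of 10 tested liver markers 0 were higher in slick than in control and 3 were lower (APOB, TF and RBP4). Over all tested features 1.48% were higher and 1.82% lower in that comparison. The part of these shifts in the member changes was not tested.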

How the data were processed

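Libraries were made from RNA of whole embryos or larvae with a TruSeq kit, per the labels' protocols. The deposited count table holds raw counts per table line, keyed to human gene identifiers. HTSeq, DESeq2 and hg19 are named in the submitters' processing notes, without roles. The steps from mahi-mahi reads to these identifiers are not given in the sources used here. Per the file headers, the authors' deposited tables hold log2 fold changes with errors, a signal (the mean of normalised counts), a Wald score, and p-values. The members and gene lists were chosen with earlier results of these data known.

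Where an identifier had several lines, the highest-total line was used, and identifiers with identical counts were joined. Replicates were compared by chi-square (genes of 20 or more counts). Of the pairs, 5 of controls were within sampling noise (p above 0.001; chi-square per degree of freedom 0.968 to 1.03, against 1.18 to 3.03 for the other 41 pairs) and were summed. Tests used edgeR 4.0.16 in R 4.3.3 with TMM scaling, filterByExpr and the quasi-likelihood F-test, two-sided, within a stage (9 libraries, 6 residual degrees of freedom) or over all 27 libraries for development and interactions (18 residual degrees of freedom). The procedure was tested on simulated counts. Named members were those called in an oil comparison or interaction. Named developmental genes were called genes with a mean of at least 50 normalised counts. Other genes are the called list genes with the lowest p (up to 5 per list), and those outside these rules (such as VDR, AHR, CBR1 at 96 hpf, POR, PAPSS1, PAPSS2, UGDH and uncalled members) were chosen after their values were seen. Alternatives were DESeq2 1.42.0, RLE scaling, no filter, summed lines, all 32 samples, 1 fit for all stages, leaving out each library, and a replicate block. Summed lines included identical lines of a gene each time they occurred. Of the list genes that this rule names, 1 is not reported here.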

Additional observations from a re-analysis of the deposited data

Results flagged for a closer look

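The slick effect on CYP2J2 differed between stages, by a test of the difference itself: the log2 change at 96 hpf minus that at 48 hpf was 1.39 (adjusted p = 0.0002). Slick against control was 1.06 at 96 hpf and -0.37 at 48 hpf (adjusted p = 0.62).

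The slick effect on CYP2R1 also differed between the same stages, by -2.51 (adjusted p = 0.0035). This difference rests on 4 counts in slick and 39 in control at 96 hpf. CYP2R1 passed the low-count filter within a stage only at 48 hpf. CYP2J2 and CYP2R1 were the 2 of 20 members called in this interaction, where 11.6% of all 8898 tested features were called. The number of calls is therefore not read as particular to the members.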

How the results depend on the processing

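There were 35 member results and 432 alternative fits. Of the fits, 407 kept direction and side of the threshold, 24 lost the call, 1 gave no adjusted p and 0 reversed. Of the 35 results, 28 never lost their call. The 35 include the 7 and 12 calls between stages in controls, where only CYP4V2 at 48 against 24 hpf lost its call. The other losses were GSTO1 in slick at 48 hpf, CYP3A4/CYP3A7 and SULT1C4 in slick against control at 96 hpf, and CYP4B1 and CYP4V2 in slick against source. A total of 16 calls were gained under an alternative, among them CYP26C1 in the interaction of slick between 96 and 48 hpf without slick replicate 7 (1.59, adjusted p = 0.027), SULT4A1 (5.32 without control 24 hpf replicate 1, adjusted p = 0.0025) and CYP20A1 (-0.80 without control 24 hpf replicate 2, adjusted p = 0.0388) in controls at 48 against 24 hpf, and UGT3A2, CYP7B1 and CYP2W1, which the filter had left out. The gain of CYP2W1 came with identical lines of the gene added more than once. Identical lines were also added more than once where GSTO1 and CYP3A4/CYP3A7 lost a call with lines summed, so those losses are not relied on either. The call of 1 member in slick at 48 hpf, GSTO1, became 0 with DESeq2, with lines summed, with a replicate block and in the same 2 groups without a replicate block. Leaving out 1 library each gave 0 to 1 called members for slick at 24 hpf, source at 24 hpf and slick at 48 hpf. With DESeq2 the interaction of slick between 96 and 48 hpf called 1 member, since CYP2R1 had a change of -2.61 without an adjusted p. The cause of these moves was not tested. Slick and control samples that share a replicate number had correlations of deviations of 0.05, 0.00 and 0.03 at 24 hpf. At 48 hpf the correlations were -0.03, 0.01 and 0.02. The check and the replicate block at 48 hpf used controls 4, 5 and 6, although 4 and 5 were summed as 1 library in the main fits. They therefore cannot decide whether the 48 hpf samples were paired. With the replicate block 0 members were called at 24 hpf too. Depth limits members below a few cpm, and the filter left 13 counted features out of the main fits.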
